A study of Mus musculus with 2 samples.

Results

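Granins and the enzymes that cut prohormones were read as 10 genes, chosen by name with earlier results of these data known. They stand among the 37681 gene identifiers of 2 RNA-seq libraries from mouse stomach. The members were the granin genes Chga, Chgb, Scg2, Scg3, Scg5, Vgf and Pcsk1n and the enzyme genes Pcsk1, Pcsk2 and Cpe, and all 10 were found and measured, meaning at least 10 reads in at least 1 library. Both libraries came from C57BL/6 mice with the genotype Hdc-CFP transgenic, in which a cyan fluorescent protein reports the activity of the gene for histidine decarboxylase, the histamine-making enzyme. Cells positive for the reporter gave the sorted library, and corpus epithelial cells depleted of them gave the depleted library. The purpose of the study was to find where the Hdc-expressing cells of the corpus come from. The number of mice, their age and the sequences that drive the reporter are not stated in the labels.

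Granins are acidic proteins that condense with hormones and calcium inside the dense-core granules of endocrine cells and neurons. Many of them are themselves precursors, and they are cut at pairs of basic residues by the prohormone convertases PC1/3 (Pcsk1) and PC2 (Pcsk2). Carboxypeptidase E (Cpe) then removes the basic residues left at the end of each fragment. In the gastric corpus the most abundant endocrine cell is the enterochromaffin-like (ECL) cell, which stores histamine and chromogranin A in such granules, next to ghrelin and somatostatin cells.

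The promoters of several members carry a short match to the cyclic AMP response element (CRE), and these stretches are shown because members on both ends of the range of folds share it. RefSeq promoter windows of 300 bases (250 before to 50 after the annotated start, GRCm38.p6) matched 8 of the 10 members, with Vgf and Cpe unmatched. Each line gives bases 100 before to 20 after the RefSeq start, read 5′ to 3′ on the gene's strand. The stretches lie at chr12:102554841-102554960 (Chga, plus strand), chr2:132781542-132781661 (Chgb, plus), chr1:79440007-79440126 (Scg2, minus) and chr13:75089757-75089876 (Pcsk1, plus). Capitals mark matches to TGACGTNA (CRE-like), to TATAAA and to CAGCACC or GGACAG, pieces of the element bound by the repressor Rest, on either strand.
Chga: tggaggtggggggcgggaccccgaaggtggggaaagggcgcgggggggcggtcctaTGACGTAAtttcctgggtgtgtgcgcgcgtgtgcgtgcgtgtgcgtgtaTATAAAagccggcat
Chgb: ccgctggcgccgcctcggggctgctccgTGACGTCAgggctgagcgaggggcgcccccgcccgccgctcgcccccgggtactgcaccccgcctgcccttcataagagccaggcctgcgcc
Scg2: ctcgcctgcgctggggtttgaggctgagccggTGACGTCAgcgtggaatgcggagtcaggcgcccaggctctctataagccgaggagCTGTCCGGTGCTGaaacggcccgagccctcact
Pcsk1: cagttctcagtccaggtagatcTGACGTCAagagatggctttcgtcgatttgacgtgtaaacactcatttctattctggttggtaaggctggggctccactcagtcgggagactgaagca

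A CRE-like match was found in 4 of the 8 member windows and in 2.93% of all 32851 windows of this length. The 8-letter match began 44 bases before the RefSeq start in Chga, 72 in Chgb, 68 in Scg2 and 78 in Pcsk1. In Chgb, Scg2 and Pcsk1 it was the palindrome TGACGTCA, which reads alike on both strands, and in Chga it was TGACGTAA. TATAAA occurred in 1 of 8 member windows, in Chga from base 5 after the start, and in 13.6% of all windows. In Scg2 both Rest pieces lay side by side on the opposite strand, ending at the base before the start, and the only other member with either piece was Chgb, with CAGCACC beginning 179 bases before the start. CAGCACC was present in 7.14% and GGACAG in 22.2% of all windows. GC content in the member windows ran from 49.3% in Pcsk1 to 76.3% in Pcsk2, with a median of 52.7% over all windows. These are letter matches and say nothing of factor binding.

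The window of Pcsk2 had no CRE-like match and 7 matches to GGGCGG (GC box), some of them overlapping. A CRE-like match was also absent from the windows of Scg3, Scg5 and Pcsk1n, whose folds (sorted over depleted) were 140, 189 and 8.11. Any link of these matches to level or fold was not tested. A GC box occurred in 6 of 8 member windows and in 35.7% of all windows, so it is common. The stretch of Pcsk2 at chr2:143545923-143546072 (plus strand, GRCm38.p6) is shown with the GC boxes in capitals, for comparison with Pcsk1, since the convertases differed widely in level.
Pcsk2: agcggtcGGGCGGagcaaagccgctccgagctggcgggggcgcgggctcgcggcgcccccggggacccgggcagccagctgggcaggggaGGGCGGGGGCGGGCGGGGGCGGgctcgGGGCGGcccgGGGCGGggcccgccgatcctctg

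**Figure D1:**
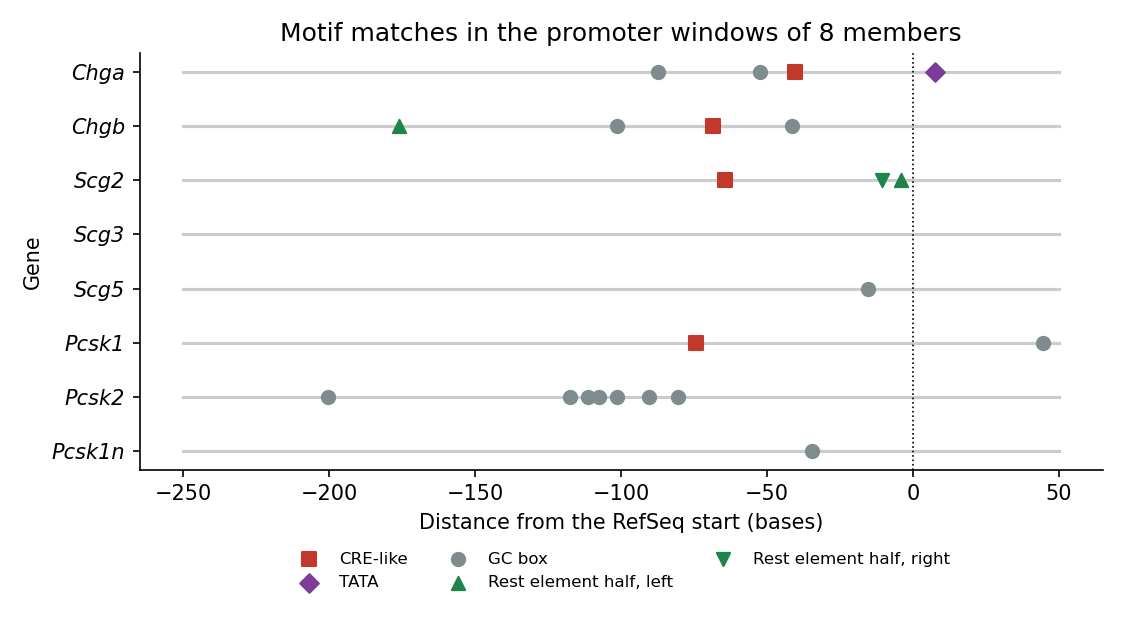
Positions of motif matches (symbols, centre of the match) along the RefSeq promoter windows of 8 members, with distance from the RefSeq start in bases on the x axis. CRE-like squares stand between 78 and 37 bases before the start in Chga, Chgb, Scg2 and Pcsk1, and Pcsk2 holds 7 GC boxes.

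The sorted library held 10736538 reads assigned to genes and the depleted library 50928524. Levels are normalised CPM, which are read counts scaled to a common library size and corrected with edgeR's trimmed-mean factors, and brackets give 95% intervals that cover counting error only. Each group held 1 library, so differences have no check by replicates and no p-value is given. Hdc had 8750 CPM in the sorted cells against 21.2 CPM in the depleted cells, in the direction of the labels. In bulk RNA, fewer cells of a type and less RNA per cell cannot be told apart.

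Of the 10 members, 9 were called higher in the sorted library, meaning measured, at least 4-fold apart and with both bounds of the interval beyond 2-fold, and 0 were called lower. Among all 16682 measured genes, 13.6% were called higher and 11.3% lower by the same rule. Higher genes were 54.7% of all called genes, a share that was 66.5% when library totals without the 10 members set the scale and 45.8% with a minimum of 50 counts. The median log2 fold of the members was 7.34, against -0.05 over all measured genes. Scg2 was the member not called. Together the 10 genes took 8.37% of the gene counts of the sorted library and 0.0187% of those of the depleted library. Once counts were divided by exon length, their share was 10.1% in the sorted cells against 0.0155% in the depleted cells. Most of this was Chga, which alone took 7.26% of the sorted counts and 8.69% once divided by length. The 3 enzyme genes took 0.213% and 0.216%.

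**Figure D2:**
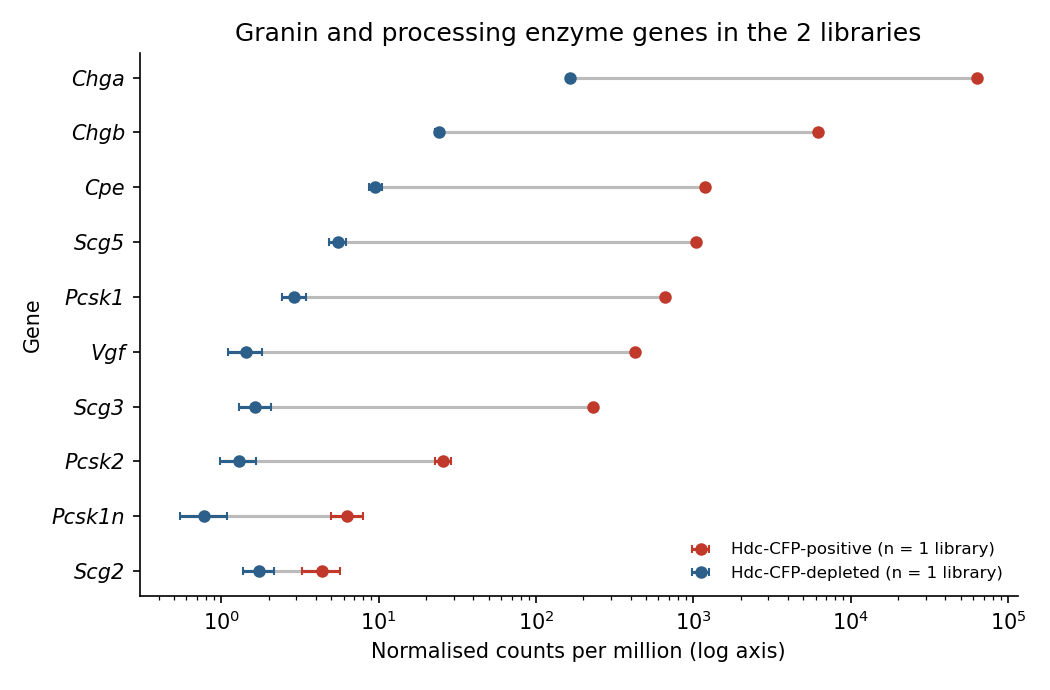
Normalised CPM (log x axis) of each member in the Hdc-CFP-positive and the Hdc-CFP-depleted library, 1 library each, with bars for the 95% Poisson interval. Every member stood higher in the sorted library, from 63985 against 164 CPM for Chga to 4.35 against 1.74 CPM for Scg2.

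Chga encodes chromogranin A, the granin for which ECL cells are best known. Its counts were 779149 in the sorted cells against 7343 in the depleted cells, or 63985 CPM [63843 to 64127] against 164 CPM [160 to 167]. The fold was 391 [382 to 400]. Per kilobase of exon Chga ranked 1 of 20194 protein-coding genes in the sorted library and 653 in the depleted library. Chga was thus the leading transcript after sorting and still a well measured one in what was left.

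Chgb, for chromogranin B, a granin of the same granules, had 75372 and 1083 counts. That is 6189.6 CPM [6145.5 to 6234] against 24.1 CPM [22.7 to 25.6], a fold of 257 [242 to 273]. It ranked 9 per length in the sorted cells against 4782 in the depleted cells. Its fold was lower than that of Chga, and their intervals did not overlap.

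The other granins spread over a wide range. Scg3, whose protein binds chromogranin A and holds it at the granule membrane, had 2809 and 74 counts, or 231 CPM [222 to 239] against 1.65 CPM [1.29 to 2.07], a fold of 140.0 [111 to 179]. Vgf, a granin-like precursor of several neuropeptides, had 5194 and 64 counts, or 427 CPM [415 to 438] against 1.43 CPM [1.10 to 1.82]. Its fold of 299 [234 to 389] was the second highest of the members, with an interval that reached into that of Chga.

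Scg2, the precursor of secretoneurin, stood apart from the other granins. It had 53 counts in the sorted and 78 in the deeper depleted library, which is 4.35 CPM [3.26 to 5.69] against 1.74 CPM [1.37 to 2.17]. The fold of 2.51 [1.73 to 3.60] lay below 4 even at its upper end. Per kilobase Scg2 ranked 9861 in the sorted library, the lowest of the members, and its promoter window holds the same CRE-like palindrome as those of Chgb and Pcsk1. The level of Chga per kilobase was 23216 CPM in the sorted library and that of Scg2 was 1.73 CPM.

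**Figure D3:**
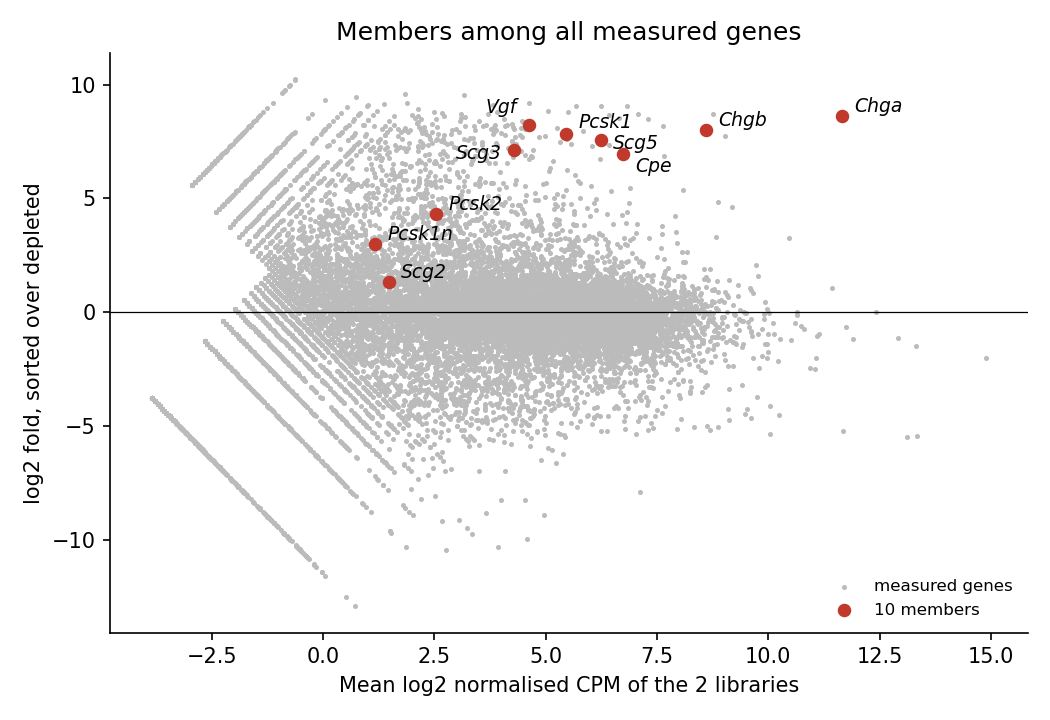
Log2 fold (sorted over depleted, y axis) against the mean log2 normalised CPM of the libraries (x axis) for all 16682 measured genes (grey) and the 10 members (red). Chga, Chgb, Vgf, Pcsk1, Scg5, Scg3 and Cpe lie between log2 folds of 6.97 and 8.61, with Pcsk2, Pcsk1n and Scg2 below them.

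The convertases differed sharply from each other. Pcsk1 had 8013 counts in the sorted cells against 130 in the depleted cells, or 658 CPM [644 to 673] against 2.90 CPM [2.42 to 3.44], a fold of 227 [191 to 272]. Pcsk2 had 313 and 58 counts, or 25.7 CPM [22.9 to 28.7] against 1.29 CPM [0.981 to 1.67], a fold of 19.9 [15.0 to 26.8]. Both were called higher, and PC1/3 transcripts were by far the more abundant kind. Within the sorted library Pcsk1 exceeded Pcsk2 by 36.1 times per exon length [32.3 to 40.6], and within the depleted library by 3.16 times [2.30 to 4.39]. The ratio was 11.4 times larger in the sorted library [8.22 to 15.9], a value that does not depend on gene length or scaling. With the longest transcript of each gene in place of all exons, Pcsk1 exceeded Pcsk2 23.99 times in the sorted library and 2.10 times in the depleted library.

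Each convertase has a small partner protein of the granin family. Scg5 encodes 7B2, which chaperones pro-PC2, and had 12600 and 246 counts, or 1035 CPM [1017 to 1053] against 5.48 CPM [4.82 to 6.21], a fold of 189 [166 to 215]. The chaperone gene therefore stood far above its client, with Scg5 at 203 times Pcsk2 per length in the sorted library [181 to 228] and at 21.4 times in the depleted library [16.01 to 29.0]. With the longest transcript of each gene in place of all exons, these values were 157 and 16.6 times. Pcsk1n encodes proSAAS, an inhibitor of PC1/3, and showed the opposite balance. It had 77 and 35 counts, or 6.32 CPM [4.99 to 7.90] against 0.779 CPM [0.543 to 1.08], a fold of 8.11 [5.37 to 12.5]. Per kilobase Pcsk1n was at 2.88 CPM in the sorted library while Pcsk1 was at 117 CPM.

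Parts of Pcsk2 and Pcsk1n overlap genes on the opposite strand, with 4.54% and 6.16% of their exon bases in the annotation used here. The strand setting and annotation of the counting were not given, so how reads from those stretches were counted is not known. The other 8 members overlapped no other gene in the annotation used.

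Cpe, the carboxypeptidase that trims cut prohormones, had 14535 and 428 counts, or 1194 CPM [1174 to 1213] against 9.53 CPM [8.65 to 10.5]. The fold was 125 [114 to 138]. It was the most abundant of the enzymes, ranking 33 per length in the sorted cells against 7749 in the depleted cells. Per exon length Chga exceeded Cpe 50.7 times in the sorted library.

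By fold, the members ran from Chga through Vgf, Chgb, Pcsk1, Scg5 and Scg3 to Cpe. Neighbouring intervals overlapped throughout this run, which does not make the folds equal. The ratio of Vgf to Chga, for example, was 1.31 times larger in the depleted library [1.02 to 1.67]. Below Cpe came Pcsk2, Pcsk1n and Scg2, each separated from the one above it. Those 3 genes also held 313 counts or fewer in the sorted library, whereas the 7 above them held 2809 or more. The 7 granins had a median log2 fold of 7.56, with a range from 1.32 to 8.61. The 3 enzymes had a median of 6.97, and their range from 4.30 to 7.82 lay inside that of the granins.

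Levels per exon length fell in a clear order in the sorted library. Chga came first, then Chgb, Scg5, Cpe, Vgf, Pcsk1 and Scg3 (23216, 2259, 659, 458, 143, 117 and 84.3 CPM per kilobase), each separated from the next by more than counting error. Pcsk2 and Pcsk1n followed at 3.25 and 2.88 CPM per kilobase with overlapping intervals, and Scg2 was last. In the depleted library Chga and Chgb again led, at 59.3 and 8.80 CPM per kilobase. Cpe and Scg5 came next at 3.65 and 3.49 CPM per kilobase and did not differ beyond counting error. Scg2, Scg3, Pcsk1, Vgf and Pcsk1n lay between 0.691 and 0.355 CPM per kilobase, each overlapping its neighbour, and Pcsk2 was last at 0.163.

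Set against Chga in the same library, the mix of transcripts differed between the libraries. Every other member was a larger fraction of Chga in the depleted library, which is another way to say that Chga had the highest fold of the 10. For Vgf the ratio to Chga was 1.31 times larger there [1.02 to 1.67], for Chgb 1.52 times [1.43 to 1.63] and for Pcsk1 1.72 times [1.45 to 2.05]. For Scg5 it was 2.07 times [1.82 to 2.36], for Scg3 2.80 times [2.22 to 3.53] and for Cpe 3.12 times [2.83 to 3.45]. The shift was far greater for the 3 remaining members, at 19.7 times for Pcsk2 [14.8 to 26.0], 48.2 times for Pcsk1n [32.3 to 72.0] and 156 times for Scg2 [110 to 222].

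**Figure D4:**
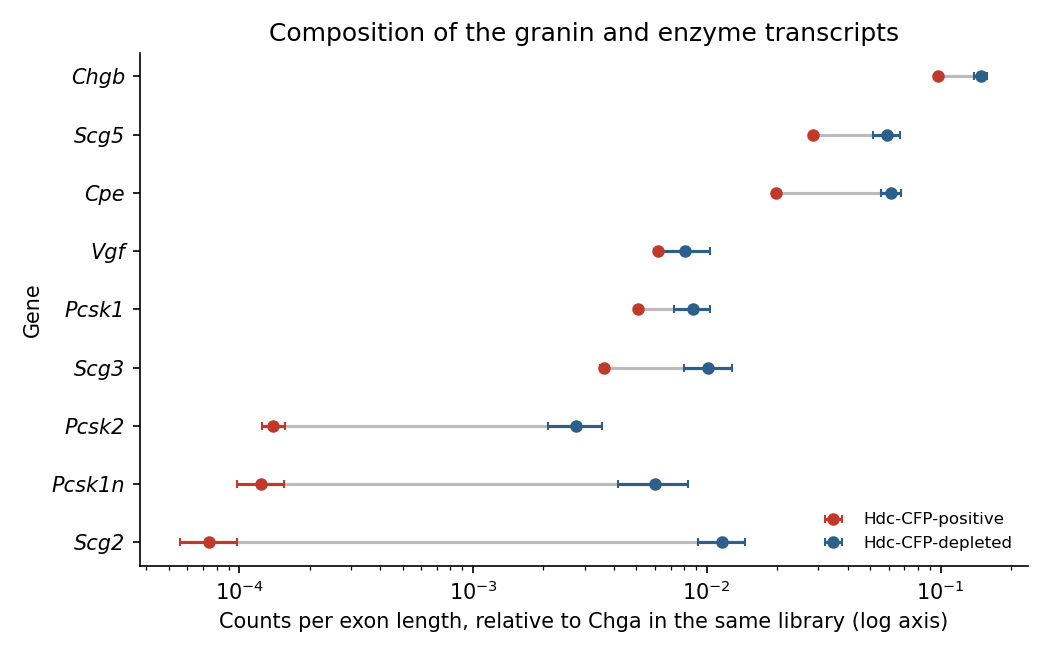
Counts per exon length of the other 9 members relative to Chga in the same library (log x axis), with 95% exact intervals for counting error. The depleted library lies to the right for every gene, by 1.31 times for Vgf and by 156 times for Scg2.

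Hdc, whose reporter defined the sort, offers another yardstick. The number of Chga counts per Hdc count was 7.31 [7.27 to 7.36] in the sorted cells against 7.72 [7.22 to 8.27] in the depleted cells. The ratio between these, 0.947 [0.885 to 1.01], had an interval that included 1. Chgb did differ, with 0.707 counts per Hdc count [0.701 to 0.714] in the sorted cells against 1.14 [1.04 to 1.24] in the depleted cells.

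By the rule for genes of like pattern, 5 protein-coding genes outside the list with at least 100 CPM in the sorted library had the log2 fold nearest to the members' median, out of 1817 compared over these 2 libraries. They were Zcchc12 (7.34), Mat1a (7.36), Agt (7.36), Ptprn (7.31) and Resp18 (7.39), each within 0.0511 of the median. Ptprn encodes IA-2, a membrane protein of dense-core granules, and Resp18 a related endocrine granule protein. Agt encodes angiotensinogen and Mat1a a methionine adenosyltransferase best known from liver. With 2 libraries, likeness means only a similar fold.

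Other genes of prohormone maturation were read from lists of 90 genes and did not move as a block. The counts of each list stand beside 13.6% called higher and 11.3% called lower among all measured genes. The remaining proprotein convertases, most of which act in the constitutive secretory pathway of many cell types, had a median log2 fold of 0.26, with 1 of 7 called higher and 0 lower. Furin, the trans-Golgi convertase, stood at 229.8 CPM in the sorted cells against 302 CPM in the depleted cells, and Pcsk7 at 55.6 and 102 CPM. Mbtps1, the site-1 protease, had 260.4 and 139 CPM. The balance of Pcsk1 to Furin per length was 4.69 [4.49 to 4.90] in the sorted cells against 0.0157 [0.0131 to 0.0187] in the depleted cells.

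The relatives of Cpe were split. Of 7 genes 5 were measured, of which 2 were called higher and 1 lower (median log2 fold -0.72). Cpd, a carboxypeptidase of the trans-Golgi network, stood at 366 CPM in the sorted cells against 863 CPM in the depleted cells and was not called. Cpe exceeded Cpd 10.4 times per length in the sorted library [10.1 to 10.8] and reached only 0.0353 of it in the depleted library [0.0320 to 0.0388]. Cpn1, a subunit of the plasma carboxypeptidase N, had 516 against 71.9 CPM (7.17-fold [6.87 to 7.48]), and Aebp1 had 21 counts against 17 (4.56-fold [2.29 to 9.20]). Cpm, a cell-surface carboxypeptidase, was 5.01-fold lower [4.16 to 6.08]. Cpxm1 had 8 and 49 counts, with an interval that spanned 1.

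Enzymes that finish peptides were mostly higher, with 4 of 6 called higher and 0 lower (median log2 fold 4.401). Pam, which amidates the ends of peptides, had 2523 CPM against 87.5 CPM, a fold of 28.9 [27.9 to 29.8]. Mboat4, the acyltransferase of ghrelin, had 322 CPM against 1.14 CPM, a fold of 284 [215 to 381.5]. Tpst1, a tyrosine sulfotransferase, was 15.5-fold higher [13.8 to 17.5], and Qpct, a glutaminyl cyclase, had 59 counts against 4 (54.4-fold [20.2 to 206]). Their relatives Tpst2 (27.0 and 27.4 CPM) and Qpctl (33.3 and 14.2 CPM) were not called.

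The fold of Mboat4 was close to those of Chgb and Vgf, but that of its substrate gene was not. Ghrl had 4348 CPM in the sorted cells against 455 CPM in the depleted cells (9.55-fold [9.40 to 9.70]). Mboat4 reached 0.0741 counts per Ghrl count [0.0717 to 0.0765] in the sorted cells against 0.00249 [0.00186 to 0.00328] in the depleted cells, a ratio 29.7 times larger in the sorted library [22.5 to 39.2]. Pcsk1, whose product cuts proghrelin, shifted likewise, with 0.151 counts per Ghrl count [0.148 to 0.155] against 0.00636 [0.00531 to 0.00755]. Ghrl overlaps genes on the opposite strand over 15.9% of its exon bases.

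Peptide precursors, the substrates of the convertases, were mixed. Of 32 genes 17 were measured, 7 were called higher and 2 lower (median log2 fold 1.66). The other called genes with the most CPM were Sst, the somatostatin gene, at 710.4 against 87.0 CPM, and Gcg, the proglucagon gene, at 60.9 against 1.29 CPM. Pyy had 118 counts against 1 (435-fold [76.6 to 17330.0]), Pomc 65 against 10 (23.97-fold [12.2 to 52.3]) and Adm2 49 against 7 (25.8-fold [11.6 to 67.5]). The lower genes, named after their values were seen, were Adm (14.7-fold lower [10.1 to 22.4]) and Edn1 (30.6-fold lower [11.9 to 112.7]). Nucb2 (86.0 and 24.6 CPM), Pthlh (2.22 and 8.20 CPM) and Nmb (1.64 and 1.002 CPM) were not called. Divided by exon length, the precursors took 1.92% of the counts of the sorted library, where the 10 granin and enzyme genes took 10.1%. The share of Chga alone was 8.69%.

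Granule membrane and granule formation genes were split. Of 16 genes 6 were called higher and 0 lower (median log2 fold 0.80). The monoamine transporters Slc18a2 (3402 against 11.7 CPM, 289.9-fold [266 to 316]) and Slc18a1 (74.2 against 0.267 CPM) were among them. Ptprn was 159-fold higher [139.8 to 182], Cadps, a priming factor for granule release, 271-fold [196 to 386] and Ica1l, a relative of the islet autoantigen gene Ica1, 282-fold [160.5 to 547]. Ptprn2, a relative of Ptprn, was at 1735 against 415 CPM, a fold of only 4.18 [4.10 to 4.26]. The 10 genes not called included Hid1, a granule maturation factor (295 and 323 CPM), Cyb561, a cytochrome of the granule membrane (218 and 145 CPM) and Arfip1 (90.3 and 142 CPM, with 75.1% of its exon bases overlapping another gene).

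Peptidases outside the convertase and Cpe families were likewise split, with 5 of 15 called higher and 1 lower (median log2 fold -0.25). The aminopeptidase genes Anpep (2874 against 117 CPM, 24.6-fold [23.9 to 25.3]) and Enpep (97.4 against 0.646 CPM, 151-fold [104 to 226]) were called higher. Ctsl, for cathepsin L, which can also cut prohormones, was 6.30-fold higher [6.08 to 6.53], with 26.9% of its exon bases shared with other genes. Ece1, for an endothelin-converting enzyme, was 4.62-fold higher [4.47 to 4.79], and Mme, for neprilysin, had 43 counts against 2 (79.3-fold [20.7 to 676]). Ctsh, for a lysosomal cathepsin, was 23.2-fold lower [17.7 to 31.0]. Ctsb (601 and 1570.5 CPM), Nrdc (196 and 199 CPM) and Rnpep (52.6 and 117 CPM) were not called.

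**Figure D5:**
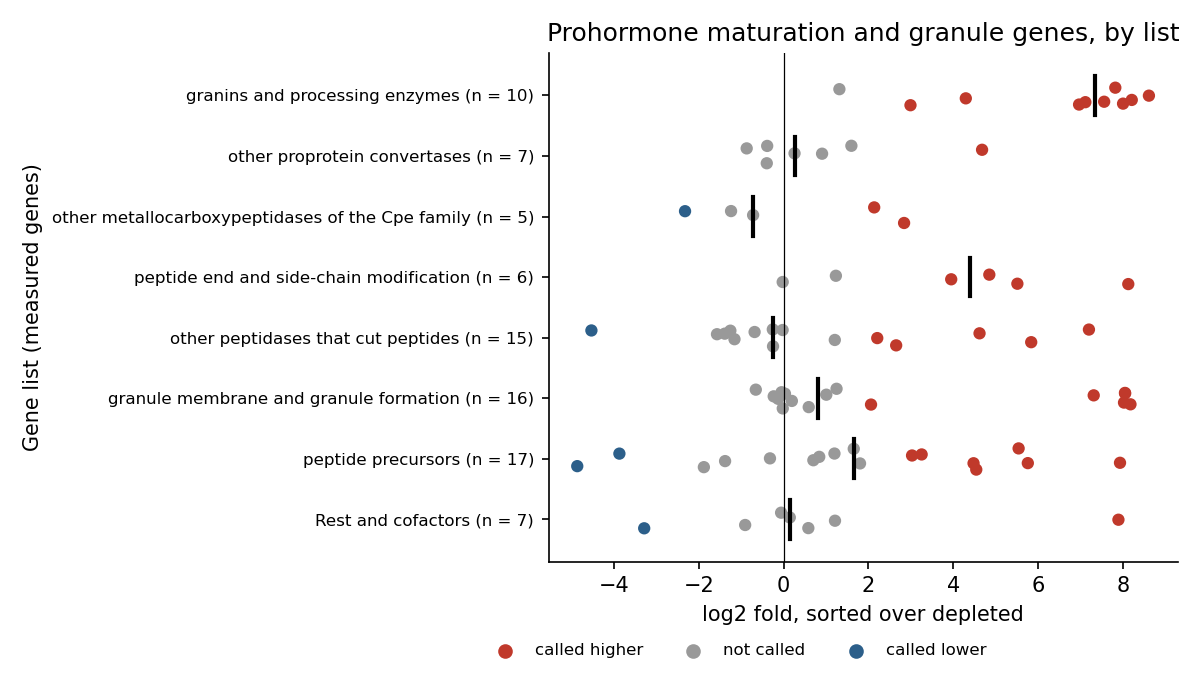
Log2 folds (sorted over depleted) of the measured genes of the member list and 7 further lists, each point 1 gene and each black bar the list's median, with vertical scatter for legibility. The member median of 7.34 lies to the right of the 7 others, which run from -0.72 to 4.401.

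Rest, a repressor that keeps granin and other neuroendocrine genes silent in many non-neuronal cells, was lower in the sorted library. It had 36 counts against 1300, or 2.96 against 28.95 CPM, 9.79-fold lower [7.04 to 14.0]. Srrm4, a splicing factor known to favour an inactive form of Rest in neurons, had 115 counts against 1 (424-fold [74.6 to 16893]). Of the 7 genes of this list 1 was called higher and 1 lower, close to the 13.6% and 11.3% of all measured genes. Any link of Rest or Srrm4 to the granin values was not tested. The general cofactors Ehmt2 (211 and 190.1 CPM), Rcor1 (92.6 and 173 CPM) and Sin3a (76.3 and 79.4 CPM) were not called.

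Markers of other cells that carry granins or travel with a sort were read beside these results. Of 8 islet markers 3 were measured and 1 was called higher, Ppy, the pancreatic polypeptide gene, with 21 counts against 0 (at least 25.8-fold higher against a floor of 3 counts in the depleted library). Slc30a8 had 8 counts against 0, below the minimum. Ins1, Ins2, Mafa and G6pc2 were listed at 0 in both libraries, and the islet list summed to 6.82 CPM in the sorted cells against 4.43 CPM in the depleted cells. Of 3 chromaffin cell markers, Dbh and Pnmt were listed at 0 in both, while Th had 220 counts against 2. Of 10 neuron and glia markers 5 were measured and 4 called higher, with a sum of 131 against 2.83 CPM, the most abundant being Ret (75.2 CPM), Elavl4 (24.6 CPM) and Chrna3 (20.4 CPM), and Prph and Sox10 were listed at 0 in both. Of 8 pancreatic acinar markers 5 were measured and all 5 called higher, with a sum of 9141 against 39.6 CPM, led by Pnliprp1 at 7603 CPM, Cel at 1172 CPM and Prss2 at 286 CPM, and Cpa1 was listed at 0 in both. Neuronal and acinar markers thus moved with the granins, and their part in the result was not tested.

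Among the endocrine markers, 3 of 3 ECL genes were called higher, with a sum of 12544 against 45.5 CPM. Of 6 markers of other gastric endocrine cells 4 were called higher and 1 lower, with a sum of 5409 against 552 CPM. Slc18a2 is also in the granule list above, Ghrl and Sst among the precursors and Mboat4 among the finishing enzymes.

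Mast cell markers, a further source of histamine, came to 253 against 89.8 CPM with 5 of 9 called higher. The called genes were Mcpt4 (27.9-fold), Cma1 (15.5-fold), Cpa3 (5.18-fold), Tpsb2 (5.02-fold) and Fcer1a (4.10-fold), named after their values were seen. The list's most abundant genes, Kit (59.4 against 32.1 CPM), Mcpt2 (48.2 against 20.98 CPM) and Mcpt1 (39.4 against 22.2 CPM), were not called. The part of mast cells in the granin values was not tested. Macrophage markers were called lower in 7 of 7 cases, at 8.95 against 2737 CPM. Tuft cell markers were called lower in 3 of 3 cases (5.83 against 203 CPM) and parietal cell markers in 2 of 2 (1263 against 7140.1 CPM). Surface mucous markers were called lower in 3 of 3 cases but still held 3442 CPM in the sorted library, against 147670 CPM in the depleted library. Of 3 chief cell markers 1 was called lower, and the list held 16509 CPM in the sorted library against 65931 CPM in the depleted library. The others were lower too but were not called, Pgc at 3.98-fold lower, just short of the 4-fold rule, and Cblif at 1.74-fold lower.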

How the data were processed

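RNA was taken from sorted Hdc-CFP-positive stomach cells and from stomach corpus epithelial cells depleted of such cells, with 1 library per group. Per the submitters' processing notes, the authors aligned reads with TopHat2 2.0.07 to mm9 and counted them with HTSeq. The deposited files hold whole-number read counts, not normalized, for each Ensembl gene. The HTSeq version, strand setting and annotation release are not given in the sources used here. Its output has 5 summary rows that name no gene, and these stayed out of library sizes. Of all alignments, 34.9% fell in them for the sorted library and 40.4% for the depleted one, mostly alignments that were not unique.

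Symbols, exon lengths and overlaps came from GENCODE M21 (GRCm38), which named 32642 of 37681 identifiers, so no gene coordinates are set against the mm9 counts. Promoters are RefSeq windows of GRCm38.p6, and their coordinates are those of that table. The listed names Cblif and Nrdc were matched through the older symbols Gif and Nrd1.

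Libraries were scaled by edgeR 4.0.16 (R 4.3.3) TMM (trimmed-mean) factors over the measured genes, 1.13 (sorted) and 0.882 (depleted). Intervals for folds and ratios within a library are exact Clopper-Pearson, those for CPM exact Poisson, and those for a ratio of ratios come from the variance of log counts. Median log2 folds use 0.5 added counts in proportion to library size, and a count of 0 was held to a floor of 3 counts in calls. That floor is 0.246 CPM (sorted) or 0.0668 CPM (depleted). Fold and interval code was tested on simulated data. Reads without molecular identifiers are not independent molecules.

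The members and lists were chosen with earlier results of these data known. Named are all members, in each list up to 6 called genes with the highest sorted CPM and up to 3 not called, and the 5 genes nearest the median fold. For marker lists the sums and up to 3 examples are given. The protein features that had been planned were not analysed here. Some listed genes are counted in their lists but not reported here by name.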

Additional observations from a re-analysis of the deposited data

How the results depend on the processing

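No paired analysis was possible because each group held 1 library, and for the same reason no replicate could be left out. In all 6 other scalings (totals with no factor, upper-quartile factors, size factors of DESeq2 1.42.0, trimmed-mean factors over all genes, which was added after seeing the data, and totals without the 20 most abundant genes or without the 10 members) 9 members were called higher, and so they were with no minimum count or a minimum of 50. At 2-fold with an interval clear of 1, all 10 were called. Each scaling multiplies all folds by 1 factor, from 0.926 to 1.40 times the given values, so it cannot change the order of the members. Nor could the number called change in this range, as Scg2 reached at most 3.52-fold and Pcsk1n, next above it, stayed at 7.515-fold or more. Every member also had more than 50 counts in 1 library, so the minimum counts removed none. The unchanged 9 is therefore no separate support. The median log2 fold of the members was 7.70 with no factor and 7.82 with totals that left the members out. At 2-fold, 34 pathway genes were called higher in place of 26, and 11 lower in place of 5. Of all measured genes, 3652 in place of 2272 were called higher and 3651 in place of 1880 lower. The share of higher among all called genes was 54.7%, against 66.5% when members were left out of the totals, 63.7% with no factor and 45.8% with a minimum of 50 counts.

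With the longest transcript in place of all exons, the members' share of length-scaled counts was 11.3% in the sorted cells against 0.0187% in the depleted cells. Pcsk1 then exceeded Pcsk2 23.99 times in the sorted cells against 2.10 times in the depleted cells, and Chga exceeded Chgb 15.0 and 9.87 times, against 10.3 and 6.74 times. The ratio of Pcsk1 to Furin was then 3.26 in the sorted and 0.0109 in the depleted cells, and that of Cpe to Cpd 12.2 and 0.0415. Chga then exceeded Cpe 60.3 times in the sorted cells. The members' order by level was the same in the sorted library, while 6 of 10 kept their place in the depleted library. Depth limits the low members, with 35 to 78 counts for Scg2, Scg3, Vgf, Pcsk2 and Pcsk1n in the depleted library.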
